A study of Mus musculus with 58 samples.

Results

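The response to traumatic brain injury (TBI) was described across all measured genes in mice that carry human APOE3 in place of mouse Apoe and 2 working copies of Abca1, written E3/Abca1+/+ below. The members were every mouse whose label gives this genotype, 16 of the 58 mice of the study, 8 injured and 8 sham, with 4 males and 4 females in each group. All 16 were targeted replacement mice on a C57BL/6 background, with the human APOE3 allele in both groups, and all were 3 months old. Injured mice received a controlled cortical impact, in which a piston strikes the exposed left parietal cortex. Sham mice had the same anesthesia and the same opening of the skull with no impact, so what surgery itself does is in both groups. RNA was taken at 14 days, after perfusion, from cortex and hippocampus frozen together from a slice through the injury, and was sequenced as 1 library for each mouse. As a model, the design has 1 impact setting, 1 time point and 1 APOE isoform, and it holds no mouse without surgery. E3/Abca1+/- mice (13, with 1 working Abca1 copy) and E4/Abca1+/+ mice (14, with human APOE4) enter only where the response is set beside theirs.

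Microglia, the resident phagocytes of the brain, and astrocytes, which support neurons and vessels, both change state after an injury to the cortex. Microglia take up debris and make complement, antigen-presenting molecules and lysosomal enzymes, while astrocytes build up intermediate filaments and secreted protease inhibitors and close off the lesion. APOE carries lipid between brain cells, and ABCA1 is the transporter that loads it with cholesterol and phospholipid.

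Library totals ran from 4421308 to 15941530 counts in sham mice and from 4719044 to 17148953 in injured mice, and did not differ detectably between the groups (two-sided exact permutation test, p = 0.9358). A count of 3, taken as the floor, stood for 0.175 to 0.679 CPM (counts scaled to the library total) depending on the library, for counting error only. Levels below are CPM scaled by TMM factors, and they are compared between mice for 1 gene, never between genes, since they are not per length. Sex-linked genes matched the sex on the label in 16 of 16 mice, and no pair of libraries held the same counts. Markers of the labelled tissue were present. Of 18 general neuron genes all passed the filter on low counts, as did 20 of 20 markers of cortical layers and 17 of 18 of hippocampal fields. In a principal component analysis of 12644 genes the first component held 43.9% of the variance and separated the groups without overlap, with sham mice from -22.2 to -14.3 and injured mice from 5.7 in mouse 1 to 36.5 in mouse 8. Injured mouse 8 stood apart from the other 7 in many genes and injured mouse 7 in markers of choroid plexus, and results that rest on either are given with and without it.

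Of 14093 genes tested, 1732 (12.3%) were higher after TBI and 1534 (10.9%) were lower by edgeR's quasi-likelihood test at an adjusted p below 0.05. The responses in the opposite directions were of unequal size. The genes that rose had a median log2 fold change of 0.558, and 402 of them had a value of at least 1, 91 of at least 2 and 35 of at least 3. The genes that fell had a median log2 fold change of -0.263, and 18 of them had a value of -1 or less. The median over all tested genes was -0.003, which the scaling by TMM sets close to 0. Every injured mouse was above every sham mouse in 585 genes (4.15% of those tested) and below every sham mouse in 342 (2.43%), of which 340 were among the called genes. Without injured mouse 8, 1490 of the genes that rose (86%) and 1308 of those that fell (85.3%) were called the same way.

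**Figure D1:**
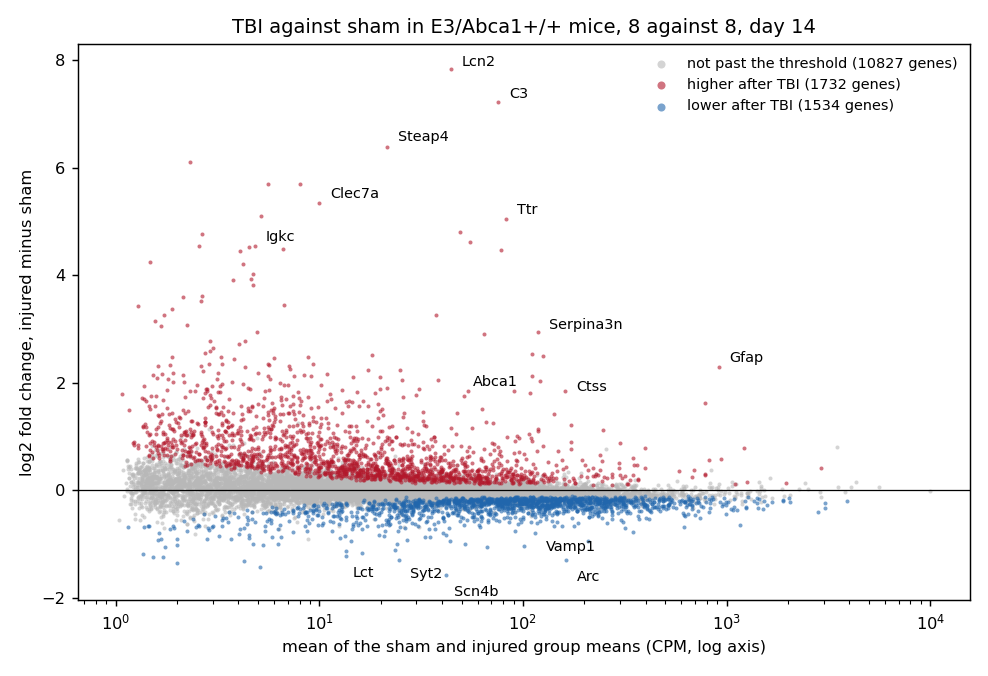
Each point is 1 of the 14093 tested genes, placed by the mean of its sham and injured group means in CPM on a log axis and by its log2 fold change, injured minus sham. The 1732 genes that rose (red) reach 7.83 in Lcn2, while the 1534 that fell (blue) stop at -1.57 in Scn4b, and 1415 of the latter (92.2%) lie at 10 CPM or more.

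The largest rises among genes averaging at least 1 CPM were in Lcn2, C3, Steap4, Cd5l, Cst7, Cxcl5, Clec7a, Tgm1, Ttr and A2m. Lcn2 encodes lipocalin 2, an iron-siderophore binding protein that reactive astrocytes secrete, and it ran from 0.155 to 1.80 CPM in sham mice (median 0.238) and from 19.2 to 163 CPM in injured mice (median 56.1), a log2 fold change of 7.83 ± 0.63 (standard error, SE, and adjusted p = 3.48e-08). C3, the central complement component, ran from 0.229 to 1.89 CPM in sham mice (median 0.731) and from 41.5 to 297 CPM in injured mice (median 115), a log2 fold change of 7.22 ± 0.50 (SE, adjusted p = 7.2e-09). Both genes were close to the floor in the sham libraries, with 28 and 75 counts over all 8, against 6965 and 11263 over the 8 injured libraries, so that the size of the fold rests on few sham reads while the separation of the groups does not. Steap4, a metalloreductase, had 37 counts over the sham libraries and 3189 over the injured ones (6.39). Still fewer sham counts lay behind Cd5l, a secreted macrophage protein (4 against 353), Cst7, a cystatin of activated microglia (15 against 835), Tgm1, a transglutaminase (21 against 765), and Cxcl5, a chemokine that draws neutrophils (22 against 1198). Their fitted log2 fold changes of 6.11, 5.69, 5.10 and 5.70 depend on the prior count added by the fit and are not bounds. A2m, encoding the protease inhibitor alpha-2-macroglobulin, was well above the floor in both groups. It ran from 1.41 to 5.63 CPM in sham mice (median 3.52) and from 44.5 to 184 CPM in injured mice (median 78.7), a log2 fold change of 4.81 ± 0.32 (SE, adjusted p = 5.27e-09). In all of these genes but Ttr no injured mouse overlapped a sham mouse.

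Genes of glia were among those with the smallest p-values. Gfap, the intermediate filament that defines reactive astrocytes, ran from 253 to 420.1 CPM in sham mice (median 297) and from 1178 to 2061 CPM in injured mice (median 1411), a log2 fold change of 2.29 ± 0.13 (SE, adjusted p = 1.4e-09). Injured mice 7 and 8 were the highest, and no injured mouse came near the sham range. Osmr, the oncostatin M receptor, ran from 4.28 to 6.20 CPM in sham mice (median 5.73) and from 17.8 to 34.6 CPM in injured mice (median 21.5), a log2 fold change of 2.10 ± 0.14 (SE, adjusted p = 7.2e-09). Ctss, the cathepsin of microglia that trims the invariant chain, ran from 62.8 to 78.4 CPM in sham mice (median 70.5) and from 178 to 335 CPM in injured mice (median 234), a log2 fold change of 1.86 ± 0.12 (SE, adjusted p = 2.73e-09). In both genes the groups were wide apart. Further genes of this rank were Vim (2.53), an intermediate filament partner of Gfap, Trem2 (2.06), a lipid receptor of microglia, C4b (2.49) and C1qa (2.04) of complement, Lgals3bp (2.25), Ly9 (3.92), Klk6 (2.78) and Lag3 (2.11), all without overlap between groups.

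**Figure D2:**
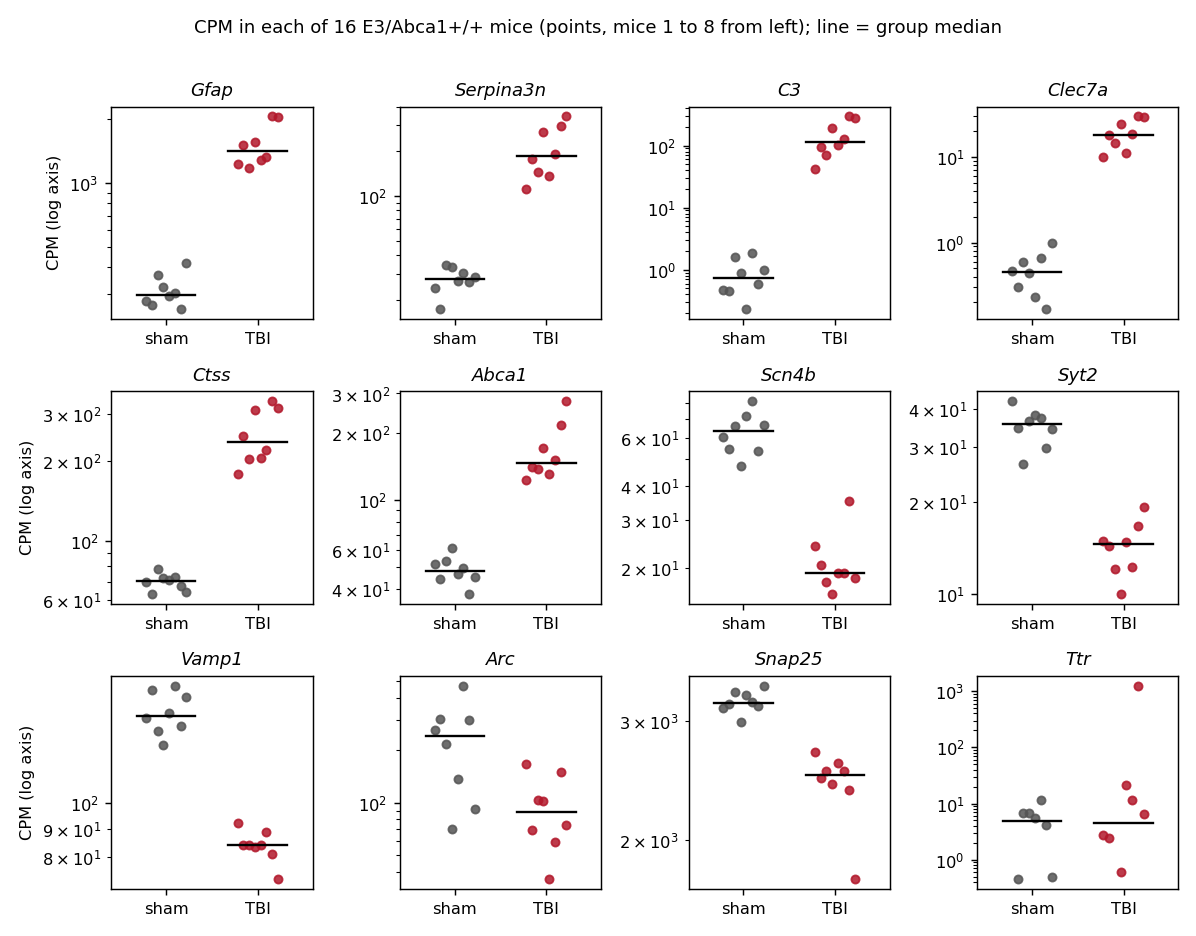
CPM of 12 genes on log axes, with 1 point for each of the 8 sham (grey) and 8 injured (red) mice and a line at the group median. Gfap, Serpina3n, C3, Clec7a, Ctss and Abca1 lie higher and Scn4b, Syt2, Vamp1 and Snap25 lower in every injured mouse than in every sham mouse, Arc overlaps, and Ttr is high in injured mouse 7 alone.

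Genes that mark the reactive state of astrocytes rose almost as a whole list, while those of resting astrocyte functions rose in part and by less. Of 33 tested members of the reactive list 28 rose and none fell (median log2 fold change 1.61), against 12.3% higher over all tested genes. In 24 every injured mouse was above every sham mouse, against 4.15% of all tested genes. Serpina3n, a secreted serine protease inhibitor, ran from 17.2 to 34.2 CPM in sham mice (median 27.7) and from 112 to 345 CPM in injured mice (median 185), a log2 fold change of 2.94 ± 0.22 (SE, adjusted p = 1.15e-08). The extracellular inhibitor Timp1 (4.45, 26 sham counts in all), the hyaluronan receptor Cd44 (1.89), the ferroxidase Cp (2.05), the pentraxin Ptx3 (4.76) and the transcription factor Stat3 (0.49) rose with it. Hspb1 (0.06), Sphk1 (0.31), Amigo2 (0.13) and Fkbp5 (0.07) did not pass the test. Of 22 genes for transporters, gap junctions and metabolic enzymes of resting astrocytes, 8 rose (36.4%) and none fell (median 0.16). The mean level of this list on the log2(CPM + 1) scale ran from 7.66 to 7.81 in sham mice and from 7.88 to 8.24 in injured mice. Aqp4, the water channel of astrocyte endfeet, ran from 131 to 171 CPM in sham mice (median 154) and from 266 to 444 CPM in injured mice (median 324), a log2 fold change of 1.12 ± 0.09 (SE, adjusted p = 3.4e-08), with no overlap. Slc1a3, a glutamate transporter, rose by 0.59 and Gja1, a connexin, by 0.55. Glul, glutamine synthetase, stood at 0.09, short of the threshold (adjusted p = 0.44). Since this is bulk tissue, more or fewer cells of a type and more or less RNA in each cell cannot be told apart, here or in any list below.

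Microglial genes rose in both the lists that describe these cells at rest and in disease, and by more in the second. Of 18 markers of resting microglia 17 rose (median 0.89). Cx3cr1, the fractalkine receptor, ran from 56.7 to 73.6 CPM in sham mice (median 62.4) and from 104 to 140.2 CPM in injured mice (median 118), a log2 fold change of 0.93 ± 0.08 (SE, adjusted p = 4.51e-08). Its ligand Cx3cl1, made by neurons, fell (-0.39). Both were without overlap. P2ry12, the ADP receptor by which resting microglia sense damage, had the smaller change of 0.47 and its injured mice overlapped the sham range, from 47.2 to 57.5 CPM against 30.7 to 49.6. Of 27 genes of the disease-associated state 25 rose (median 1.84), and neither Ank (-0.10) nor Fth1 did (0.15, called without injured mouse 3).

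Clec7a, a beta-glucan receptor that marks this state, ran from 0.165 to 0.983 CPM in sham mice (median 0.453) and from 9.94 to 30.04 CPM in injured mice (median 18.3), a log2 fold change of 5.34 ± 0.32 (SE, adjusted p = 2.4e-09). The groups were far apart, and injured mice 7 and 8 were again the highest. Spp1, encoding osteopontin, ran from 10.1 to 25.1 CPM in sham mice (median 13.9) and from 34.4 to 209.6 CPM in injured mice (median 79.97), a log2 fold change of 2.90 ± 0.34 (SE, adjusted p = 2.54e-06). Gpnmb, a glycoprotein of lipid-laden phagocytes, rose by 4.62, Lgals3, which binds damaged lysosomes, by 4.48, and Itgax, the alpha chain of complement receptor 4, by 4.20. Tyrobp, the signalling partner of Trem2, ran from 11.9 to 14.1 CPM in sham mice (median 13.4) and from 31.8 to 68.4 CPM in injured mice (median 43.0), a log2 fold change of 1.89 ± 0.15 (SE, adjusted p = 3.54e-08). Lpl, lipoprotein lipase, and Axl, a receptor for apoptotic cells, rose by 0.83 and 0.74, whereas its relative Tyro3, which neurons express, fell (-0.34) and Mertk stood at 0.30, which passed the test without injured mouse 1 or 4, with sex as a covariate and in the fit over 58 mice. Among receptors of phagocytes in general, 18 of 23 rose and Tyro3 alone fell. Fcgr4 (3.42), Siglec1 (3.61) and Cd22 (3.52), which bind antibody or sialic acid, rose the most apart from Clec7a.

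The machinery behind those receptors moved in the same direction. The adhesion and motility list counted 27 of 31 members higher (median 1.20), among them Ptprc (2.14), the pan-leukocyte phosphatase CD45, Spi1 (1.47), which encodes the myeloid factor PU.1, and Runx1 (2.07). Itgav, an integrin chain of many cell types, fell (-0.20), and Coro1a, a coronin of both leukocytes and neurons, stood at -0.08. The phagocyte oxidase, which makes superoxide, had 6 of 7 genes higher. Its membrane subunit Cybb ran from 0.455 to 0.774 CPM in sham mice (median 0.675) and from 3.25 to 20.6 CPM in injured mice (median 6.53), a log2 fold change of 3.81 ± 0.43 (SE, adjusted p = 1.73e-06). Only Rac1, which is not specific to phagocytes, did not pass (0.06).

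Complement genes rose from the first component to the receptors. In total 16 of 21 were higher and none lower (median 1.46), against 12.3% higher and 10.9% lower over all tested genes. C1qa, C1qb and C1qc, the chains of C1q that microglia make, rose by 2.04, 1.77 and 1.85. C1qa ran from 41.6 to 59.5 CPM in sham mice (median 44.8) and from 134 to 275 CPM in injured mice (median 175), a log2 fold change of 2.04 ± 0.15 (SE, adjusted p = 7.94e-09). C4b, the next component in the classical pathway and a near copy of C4a with which it can share reads, ran from 28.4 to 61.0 CPM in sham mice (median 37.4) and from 155 to 321 CPM in injured mice (median 197), a log2 fold change of 2.49 ± 0.16 (SE, adjusted p = 2.73e-09). Neither gene overlapped. The receptor for the C3a fragment, C3ar1, rose by 2.47. Of the regulators, the C1 inhibitor Serping1 (1.82) and clusterin (Clu, 0.79) also rose, while Cd55 (0.09), Cd59a (0.17) and Cr1l (0.15) did not pass the test. The rise thus included soluble inhibitors, but of the membrane-bound ones that were tested none was called.

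Antigen presentation rose in both classes. For class I, 17 of 20 genes were higher (median 0.69). B2m, the light chain of class I molecules, ran from 73.4 to 86.1 CPM in sham mice (median 76.1) and from 142 to 299 CPM in injured mice (median 199), a log2 fold change of 1.42 ± 0.12 (SE, adjusted p = 7.55e-08), and H2-K1, a classical heavy chain, ran from 21.3 to 26.5 CPM in sham mice (median 22.7) and from 56.8 to 116 CPM in injured mice (median 74.8), a log2 fold change of 1.85 ± 0.15 (SE, adjusted p = 3.54e-08). Both were without overlap, but heavy chain genes are near copies of each other, and reads can pass between them. Nlrc5, the class I transactivator, rose by 1.96, and Psmb8 and Psmb9, subunits of the immunoproteasome, by 2.07 and 1.86. The chaperones Calr (-0.10) and Canx (-0.02), which serve all secreted proteins, were not called. For class II, 9 of 11 rose (median 1.86). Cd74, the invariant chain, ran from 2.54 to 10.5 CPM in sham mice (median 4.94) and from 13.6 to 52.2 CPM in injured mice (median 23.6), a log2 fold change of 2.53 ± 0.31 (SE, adjusted p = 5.29e-06). The transactivator Ciita stood at 0.01 (adjusted p = 0.983), with medians of 1.29 CPM in sham mice and 1.19 in injured mice and overlapping groups. Markers of T cells were hardly measured, with 2 of 8 tested and 1 higher. With no filter 5 of the 8 were higher, as in DESeq2, and in the fit over 58 mice it was 6. Lck was called higher (0.61), but leaving out any mouse other than injured mouse 6 or 8 or sham mouse 8 ended the call, and Trbc2 fell (-1.24, with overlap). Igkc, the kappa light chain constant region of plasma cells, ran from 0.229 to 0.662 CPM in sham mice (median 0.329) and from 2.91 to 31.2 CPM in injured mice (median 4.78), a log2 fold change of 4.54 ± 0.64 (SE, adjusted p = 2.12e-05). It separated the groups, and injured mouse 1 was the highest.

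Genes induced by interferon rose as a list. Of 44 tested 42 rose and 1 fell (median 1.39). The antiviral tether Bst2 ran from 1.76 to 3.79 CPM in sham mice (median 2.74) and from 6.78 to 16.6 CPM in injured mice (median 10.8), a log2 fold change of 1.95 ± 0.20 (SE, adjusted p = 4.21e-07). Gbp2, a guanylate-binding protein, ran from 3.23 to 5.08 CPM in sham mice (median 3.79) and from 12.3 to 29.1 CPM in injured mice (median 14.6), a log2 fold change of 2.16 ± 0.19 (SE, adjusted p = 6.08e-08). The transcription factor Irf7 rose by 2.13 and the deubiquitinase Usp18, which damps the type I receptor, by 2.15. Adar, an RNA-editing enzyme with an interferon-driven isoform, fell (-0.19), a call that was lost without injured mouse 4 or 8 or sham mouse 1 or 8, and Ly6e stood at 0.12, called without injured mouse 8. Injured mouse 7 had the highest level of the list and injured mouse 5 the lowest, and none reached the sham range.

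The windows below come from promoters of called interferon and class I genes and carry the core of the interferon-stimulated response element (ISRE), shown because interferon induces genes of both lists. They are RefSeq promoters on build GRCm38.p6, written 5′ to 3′ on the strand of the gene. Capitals mark 1 match in each to GAAANNGAA or its reverse complement, TTCNNTTTC. Bst2, Gbp3 and Irgm1 each hold 2 matches upstream of the start, of which 1 is marked.
Gbp2, chr3:142620575-142620643, plus strand: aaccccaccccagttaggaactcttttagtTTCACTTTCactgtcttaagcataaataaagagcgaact
Bst2, chr8:71537558-71537626, minus strand: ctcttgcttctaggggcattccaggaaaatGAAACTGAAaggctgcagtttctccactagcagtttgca
Gbp3, chr3:142559976-142560043, plus strand: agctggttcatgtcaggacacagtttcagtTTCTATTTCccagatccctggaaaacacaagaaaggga
Irgm1, chr11:48871421-48871474, minus strand: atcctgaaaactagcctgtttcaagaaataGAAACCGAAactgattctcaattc
B2m, chr2:122147518-122147586, plus strand: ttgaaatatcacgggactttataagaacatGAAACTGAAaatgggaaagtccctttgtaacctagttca
H2-T23, chr17:36032786-36032854, minus strand: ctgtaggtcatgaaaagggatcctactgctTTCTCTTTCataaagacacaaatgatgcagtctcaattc
All 6 marked matches lie upstream of the start. Over promoter windows from 250 bases before to 50 after a start, 6.97% of 14126 windows of tested genes held the core on either strand. It was in 10.8% of the windows of genes that rose and 5.33% of those of genes that fell, in 47.5% of 40 windows of the interferon genes that rose, and in 31.2% of 16 windows of the class I genes that rose. The core was also in 20% of 15 windows of falling late activity genes, 13.9% of 36 of falling potassium channels and 0% of 11 of falling cholesterol synthesis genes. Among the interferon genes that rose, TTCNNNGAA was in 27.5% of windows (6.65% of all) and TGANTCA in 20% (5.05% of all). TTCNNNGAA was as frequent in falling late activity genes (26.7% of 15 windows) and was in 13.9% of 36 of falling potassium channels. In those 2 lists TGANTCA was in 6.67% and 2.78%. The other motifs searched were in 0% to 15% of the windows of the interferon genes that rose. These are letter matches in RefSeq windows, which 77.9% of tested genes have, and not binding sites.

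Signals and sensors of inflammation followed. Of 29 cytokine and chemokine receptors 23 rose (median 0.90), among them Il2rg (2.15), Csf2rb (2.01) and Tnfrsf1a (1.20). Pattern recognition counted 21 of 24 (median 1.37). Tlr2, which senses bacterial and endogenous lipids, ran from 0.464 to 1.61 CPM in sham mice (median 1.17) and from 6.57 to 22.3 CPM in injured mice (median 9.86), a log2 fold change of 3.46 ± 0.28 (SE, adjusted p = 3.4e-08). Ligands gave a mixed picture, with 11 of 19 higher, 2 lower and many known members under the filter. In DESeq2, and in the fit over 58 mice, 20 were higher. Cxcl10, which interferon induces, had 28 counts over the sham libraries and 718 over the injured ones (4.52). Tgfb1 rose by 1.00 and Csf1, the growth factor of microglia, by 0.82, while Ccl27a fell with Cx3cl1 (-0.35). Il34, the neuronal ligand of the same receptor as Csf1, stood at -0.10.

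Lysosomal genes rose by smaller amounts. In all 34 of 50 were higher and none lower (median 0.41). Cd68, a lysosomal membrane protein of phagocytes, ran from 7.43 to 12.4 CPM in sham mice (median 8.83) and from 25.6 to 57.5 CPM in injured mice (median 38.3), a log2 fold change of 2.24 ± 0.17 (SE, adjusted p = 2.5e-08). Ctsd, an aspartyl protease found in all cells, ran from 352 to 422 CPM in sham mice (median 384) and from 744 to 1781 CPM in injured mice (median 1099.6), a log2 fold change of 1.63 ± 0.15 (SE, adjusted p = 1.01e-07). Both groups of each gene were apart. Grn (1.15), enriched in microglia, rose by more than Lamp1 (0.43) and Psap (0.13), which neurons express as well. The enzymes Neu1 (0.04), Gaa (0.02) and Smpd1 (-0.05) were not called. Of 15 genes of myeloid cells near Alzheimer risk loci, 10 rose and 1 fell, Bin1 (-0.11), which neurons and oligodendrocytes also express and whose call was lost without sham mouse 6 or 8. In the amyloid precursor pathway 3 of 19 rose and 4 fell, near the share of all genes for the rises. App stood at -0.14 and Mapt, which encodes tau, at -0.20, both called lower, the first not without sham mouse 3, with Sorl1, a sorting receptor, at -0.61.

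Abca1, the gene that sets this genotype apart from the heterozygous one, rose without overlap. It ran from 37.8 to 60.9 CPM in sham mice (median 48.0) and from 123 to 278 CPM in injured mice (median 146), a log2 fold change of 1.81 ± 0.15 (SE, adjusted p = 3.79e-08), and lies on chr4:53030789-53159988 in GRCm38. Injured mice 7 and 8 were the highest. Genes of cholesterol export, storage and lipoproteins counted 16 of 27 higher and 1 lower (median 0.32). Apoc1 (2.31), an apolipoprotein beside Apoe, Plin2 (1.28), which coats lipid droplets, Apod (1.05) and Soat1 (0.58), which makes cholesterol esters, rose. Abcg1, the other main exporter, rose by only 0.21, and Mylip, a sterol-induced ubiquitin ligase, by 0.48. The sterol sensor Nr1h3 (0.28) was not called, nor was Lrp1 (-0.03), a receptor of APOE. The row named Apoe gave 0.29 (adjusted p = 0.0119) with overlap between groups. Mouse Apoe is replaced by the human gene in all 16 mice, so this row may hold only the part of the reads that also maps to the mouse gene, and no level of APOE is read from it.

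Cholesterol synthesis moved the opposite way, by little and across the pathway. Of 27 genes 16 fell and none rose (median -0.31), against 10.9% lower over all genes tested. Srebf2, the transcription factor that drives the pathway, ran from 222 to 283 CPM in sham mice (median 258) and from 153 to 217 CPM in injured mice (median 183), a log2 fold change of -0.47 ± 0.06 (SE, adjusted p = 1.41e-05). Fdft1, squalene synthase, ran from 68.2 to 91.4 CPM in sham mice (median 73.9) and from 43.3 to 66.6 CPM in injured mice (median 57.3), a log2 fold change of -0.43 ± 0.08 (SE, adjusted p = 0.000368). These were without overlap. Stard4 (-0.67), which moves cholesterol inside cells, also fell, with overlap. The count was 11 without injured mouse 8 and 5 in either the 8 shallower or the 8 deeper libraries alone. Srebf1, which drives fatty acid synthesis, went the other way, from 41.5 to 65.1 CPM in sham mice and 73.7 to 142 in injured mice (0.80), and its targets Fasn (-0.14) and Scd1 (-0.07) were not called. In the fatty acid list 5 rose and 3 fell of 18. The sterol regulatory element TCACCCCAC, searched on both strands, was in 0.559% of all windows and in 1.19% of those of genes that fell. Falling potassium channels held it in 2 of 36 windows and rising reactive astrocyte genes in 1 of 28. Among the synthesis genes that fell, it was in 1 of 11 windows. That window, shown as the single match, is in the Hmgcs1 promoter, upstream of the start, with the element in capitals.
Hmgcs1, chr13:119690184-119690252, plus strand: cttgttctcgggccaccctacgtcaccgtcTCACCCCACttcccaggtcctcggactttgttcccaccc
Hmgcs1, which encodes an early synthase of the pathway, had -0.38.

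**Figure D3:**
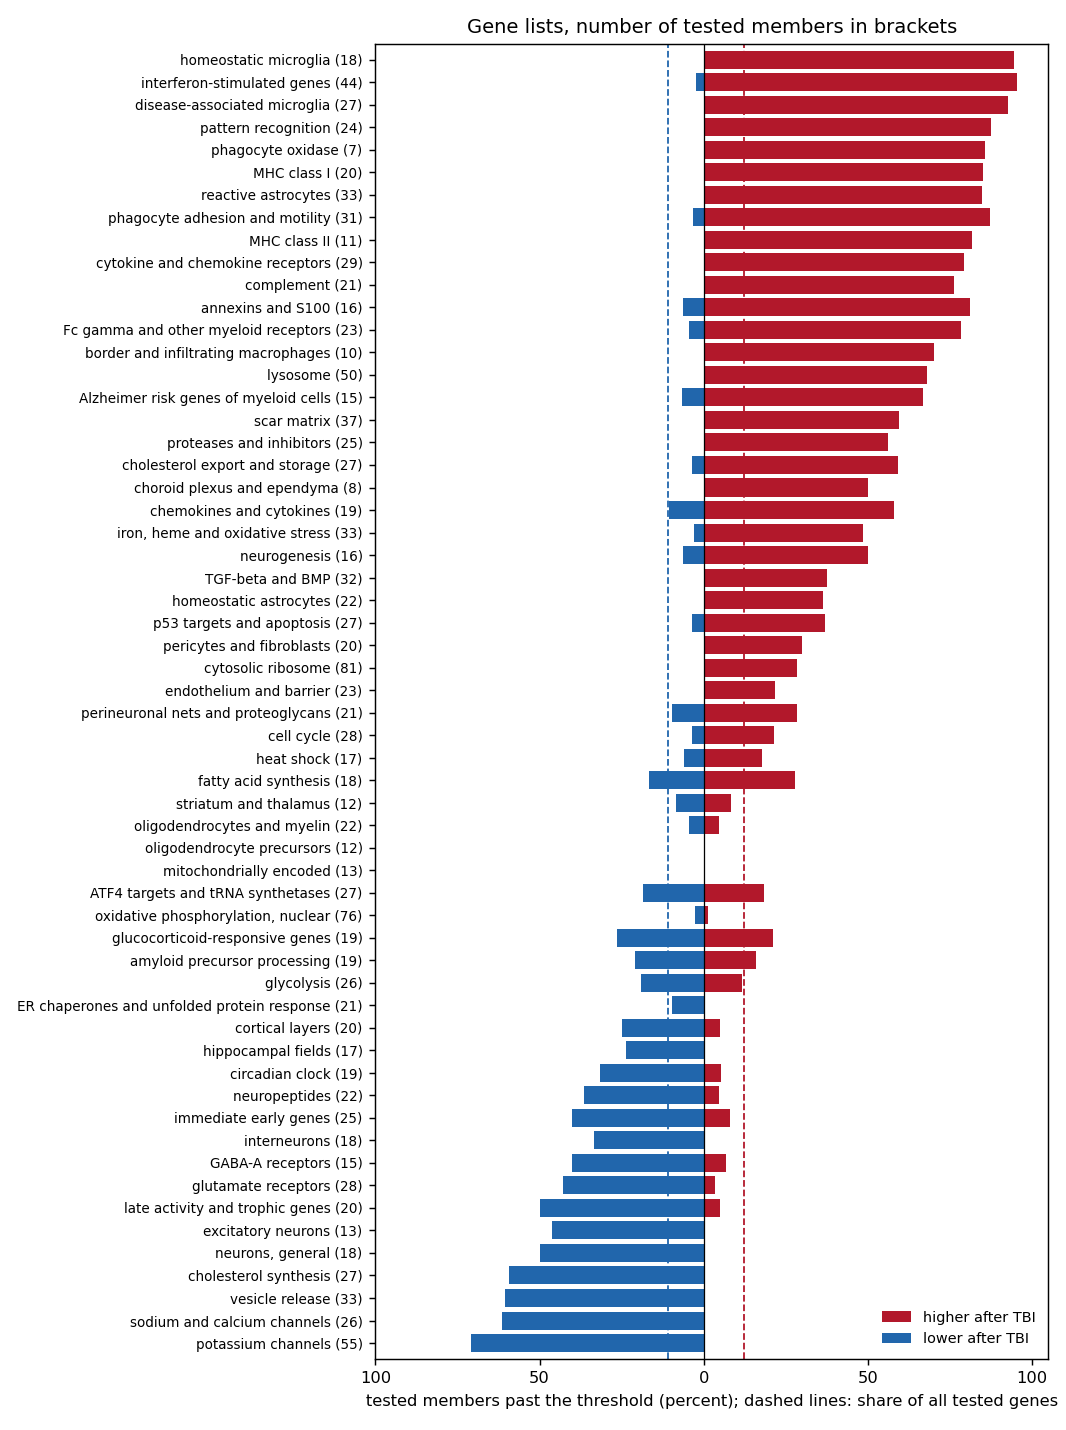
For each of 58 gene lists with 5 or more tested members, the bar to the right is the percent of tested members higher after TBI and the bar to the left the percent lower, with dashed lines at the shares of all tested genes, 12.3% and 10.9%. Lists of microglia, interferon genes and reactive astrocytes lie at the top, and potassium channels, sodium and calcium channels, vesicle release and cholesterol synthesis at the bottom.

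Genes of neurons were among those that fell, and the falls were modest. Scn4b, an auxiliary sodium channel subunit that speeds firing, had the largest fall among genes averaging at least 1 CPM. It ran from 47.2 to 81.6 CPM in sham mice (median 63.3) and from 16.1 to 35.3 CPM in injured mice (median 19.3), a log2 fold change of -1.57 ± 0.13 (SE, adjusted p = 5.75e-08). Syt2, the calcium sensor of fast synapses, ran from 26.5 to 42.4 CPM in sham mice (median 35.6) and from 9.98 to 19.3 CPM in injured mice (median 14.6), a log2 fold change of -1.28 ± 0.12 (SE, adjusted p = 1.38e-07). Vamp1, a synaptobrevin of such synapses, ran from 127 to 161 CPM in sham mice (median 143) and from 73.1 to 92.2 CPM in injured mice (median 84.2), a log2 fold change of -0.78 ± 0.06 (SE, adjusted p = 7.94e-09), on chr6:125215581-125222306. In none of these genes did an injured mouse reach the sham range. Others with the smallest p-values among the falls were Scn1a (-0.67), the sodium channel of interneurons, Lamp5 (-1.03), Kcnab3 (-0.93), Rph3a (-0.76), Nat8l (-0.53), which makes N-acetylaspartate, Kalrn (-0.47), Adcy1 (-0.64), Rcan2 (-0.42) and the muscarinic receptor Chrm3 (-0.54). Larger falls with more spread were seen in Rspo1 (-1.43), Arc (-1.28) and Lct (-1.21), the last 2 with overlap.

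Potassium channels were the list with the greatest share lower. Of 55 tested subunits 39 fell and none rose (median -0.31). Kcna2, a voltage-gated subunit of axons, ran from 302 to 412 CPM in sham mice (median 367) and from 214 to 272 CPM in injured mice (median 255), a log2 fold change of -0.54 ± 0.06 (SE, adjusted p = 1.48e-06). Kcnk4, a mechanically gated leak channel, ran from 9.24 to 12.5 CPM in sham mice (median 10.9) and from 5.57 to 7.94 CPM in injured mice (median 6.43), a log2 fold change of -0.75 ± 0.09 (SE, adjusted p = 3.78e-06). Kcnh3 (-0.44) fell as well, and none of the 3 overlapped. Kcnd3 (-0.03), Kcnk2 (-0.03) and Kcnn3 (0.16) were not called. Outside this list, Kcnj10, the inward rectifier of astrocytes, stood at 0.14, and its partner Kcnj16 rose (0.21). The count of falling subunits was 17 in the 8 deeper libraries alone.

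Sodium and calcium channels had 16 of 26 lower and none higher (median -0.26). Cacna1i (-0.54), a low-threshold calcium channel, and Cacnb4 (-0.53) were among them, while Cacna1c (-0.09) and Scn3a (-0.04), an embryonic sodium channel, were not called. For vesicle release it was 20 of 33 (median -0.24). Snap25, a core part of the fusion complex, ran from 2998 to 3387 CPM in sham mice (median 3192) and from 1748 to 2705 CPM in injured mice (median 2500.4), a log2 fold change of -0.40 ± 0.06 (SE, adjusted p = 9.18e-05). Injured mouse 8 was the lowest, and without it the log2 fold change was -0.34 (adjusted p = 3.41e-07). Cplx1, a complexin, fell by 0.42 and Unc13a, a priming factor, by 0.41 on the log2 scale, while Sncb (-0.11) was not called.

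Receptors for the main transmitters fell in part. Of 28 glutamate receptor and postsynaptic density genes 12 fell and 1 rose (median -0.17). The count was 7 without injured mouse 2, 4 or 7 or sham mouse 8, and 6 without sham mouse 1. Grin1, the subunit shared by NMDA receptors, had -0.32, whereas the AMPA subunits Gria1 (-0.10) and Gria2 (-0.09) were not called. Grin2c, which astrocytes express, was called higher (0.23), but not without injured mouse 8 or sham mouse 3 or 5. For GABA, 6 of 15 fell and 1 rose, in a list that also holds both GABA-B subunits. Gabrd, the subunit of extrasynaptic receptors, fell by 0.52 on the log2 scale, and Gabrg1, which glia express, was called higher (0.19), but not without sham mouse 1.

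Markers of neurons as such were lower in 9 of 18 (median -0.17) and higher in none. Over all tested genes 10.9% were lower and 12.3% higher, which also holds for the lists that follow here. The heavy neurofilament Nefh ran from 63.0 to 81.9 CPM in sham mice (median 77.6) and from 42.1 to 57.1 CPM in injured mice (median 46.2), a log2 fold change of -0.63 ± 0.07 (SE, adjusted p = 2.15e-06), and Rbfox3, the gene of NeuN, fell by 0.30. Map2 (-0.01), Uchl1 (0.05) and Stmn2 (-0.01) were not called. In excitatory neurons 6 of 13 fell, led by Slc17a6 (-0.80), the vesicular glutamate transporter found mainly below the cortex, while Slc17a7, its cortical and hippocampal counterpart, stood at -0.11. In interneurons 6 of 18 fell. Pvalb, the marker of fast-spiking cells, ran from 31.3 to 46.7 CPM in sham mice (median 37.4) and from 17.5 to 27.2 CPM in injured mice (median 24.4), a log2 fold change of -0.67 ± 0.09 (SE, adjusted p = 2.36e-05), without overlap. Gad1 fell (-0.34), and Reln (-0.08) and Lhx6 (-0.13) were not called. Among 20 layer markers 5 fell (25%) and 1, Cdh13, rose (0.22), a share of rises (5%) below that of all genes. Hippocampal field markers had 4 of 17 lower (23.5%), with Dsp (-1.16) and Lct (-1.21) of the granule cells ahead, both overlapping. In the 8 shallower libraries alone 2 interneuron and 3 layer markers fell, and in the 8 deeper ones 3 and 2. The hippocampal count was 4 in each.

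Genes that follow neuronal activity were lower, and their list had the widest range among sham mice of all 62 lists (1.16 on the log2(CPM + 1) scale). Of 25 immediate early genes 10 fell and 2 rose. The falls numbered 8 in the 8 deeper libraries alone and only 2 in the 8 shallower ones, where Arc, Egr1 and Nr4a1 were not called. Arc, which acts at active synapses, ran from 70.4 to 469 CPM in sham mice (median 240.3) and from 36.2 to 166 CPM in injured mice (median 88.1), a log2 fold change of -1.28 ± 0.33 (SE, adjusted p = 0.00749). The groups overlapped, since 3 sham mice lay within the injured range. Egr1 (-0.93), Nr4a1 (-1.06) and Npas4 (-1.13) fell with like overlap. Fos stood at -0.69 (adjusted p = 0.0884) and was called without sham mouse 4. The rises were in Jun (0.31) and in Atf3, an injury-induced partner of Jun, which ran from 0.464 to 1.81 CPM in sham mice (median 0.766) and from 2.97 to 6.20 CPM in injured mice (median 3.83), a log2 fold change of 2.22 ± 0.27 (SE, adjusted p = 4.25e-06), and did not overlap. Of 20 later activity and trophic genes 10 fell, with Bdnf at -0.71, Vgf at -0.67, Nptx2 at -0.70 and Rgs4 at -0.69. Ntrk2, the BDNF receptor, whose truncated form astrocytes make, rose (0.31). Neuropeptide genes counted 8 of 22 lower, with Adcyap1 (-0.62), which encodes PACAP, the one without overlap.

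Matrix genes rose as a group, and more so in 1 mouse. The scar list counted 22 of 37 higher and none lower (median 0.55), and 17 without injured mouse 8. Col3a1, a fibrillar collagen of fibroblasts, ran from 3.58 to 14.1 CPM in sham mice (median 6.32) and from 6.68 to 43.2 CPM in injured mice (median 11.6), a log2 fold change of 1.25 ± 0.35 (SE, adjusted p = 0.0137). Bgn, a small proteoglycan, ran from 10.01 to 15.5 CPM in sham mice (median 12.0) and from 16.5 to 38.3 CPM in injured mice (median 18.5), a log2 fold change of 0.84 ± 0.16 (SE, adjusted p = 0.000614). The first overlapped and the second did not. Without injured mouse 8 the values were 0.77 (adjusted p = 0.0278) in Col3a1 and 0.66 (adjusted p = 0.000177) in Bgn. In the shallower 8 libraries, which do not hold that mouse, Col3a1 stood at 0.61 and was not called (adjusted p = 0.24). Tnc, a matrix protein of reactive astrocytes, rose by 0.93. The perineuronal net, a coat of fast-spiking neurons, went the other way in part, with Acan (-0.69) and Hapln4 (-0.49) lower and 6 of the 21 net and proteoglycan genes higher. Proteases and their inhibitors had 14 of 25 higher, with the inhibitors A2m, Timp1 and Serpina3n given above and the proteases Mmp19 (1.75), Plau (1.21) and Mmp2 (0.96) among them. Annexins and S100 proteins, which bind calcium, counted 13 of 16, led by S100a4 (2.48) and S100a6 (1.52), and Anxa11 was called lower (-0.35), a call that held only when the mouse left out was injured mouse 2, 5 or 6 or sham mouse 1, 2 or 7. TGF-beta signalling had 12 of 32 higher, with both receptor chains among them (Tgfbr1, 0.82, and Tgfbr2, 0.96), as well as the target Id3 (1.00).

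Markers of other cell types of the sample differed in how many of them moved, and a few moved with single mice. Of 23 endothelial genes 5 rose (median 0.13). The adhesion molecules Icam1 (1.74) and Vcam1 (1.05) led, which glia also make, while Cldn5 (0.30), Pecam1 (0.07) and Mfsd2a (-0.08) were not called, and 3 rises were left without injured mouse 8 or sham mouse 2 or 3. Pericyte and fibroblast genes went from 6 of 20 to 3 without that mouse. Its mean level of this list was 5.00 on the log2(CPM + 1) scale, against 3.60 to 4.24 in sham mice. Border and infiltrating macrophage markers were higher in 7 of 10, or 4 without injured mouse 8 and 11, of more that passed the filter, without sham mouse 5. In DESeq2 it was 12. Mrc1 rose (0.97), Lyve1 (0.27) was not called, and Ccr2 and Ly6c2 of blood monocytes were under the filter, as were S100a8 and S100a9 of neutrophils. Myelin genes had 1 of 22 higher, Trf (0.43), and 1 lower, Mal (-0.35), the latter not without injured mouse 2, 3, 4 or 6 or sham mouse 3 or 6. Of 12 genes of their precursors none was called, against 12.3% higher and 10.9% lower among all genes. Mbp, the myelin basic protein gene, stood at -0.03 and was not called.

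Ttr, the transthyretin of choroid plexus, passed the test on 1 library. It ran from 0 to 11.4 CPM in sham mice (median 4.86) and from 0 to 1237 CPM in injured mice (median 4.56), a log2 fold change of 5.04 ± 1.42 (SE, adjusted p = 0.0128). Injured mouse 7 held nearly the whole rise, since the next highest injured mouse was at 21.4 CPM, and without mouse 7 the log2 fold change was 0.39 with an adjusted p of 0.754. In the 8 deeper libraries, which do not hold it, the value was -0.12. Other markers of choroid plexus and ependyma moved with that library, where 4 of 8 tested members were higher, and 2 without it. Kl was at 60.5 CPM there against at most 16.1 in the other 15 mice, the level of the whole list was 3.60 against at most 2.15 in the others, and Folr1, Clic6 and Cldn2 were under the filter. Foxj1, of ciliated ependyma, rose with mouse 7 (1.12) and without it (0.95, adjusted p = 0.00756).

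Lists of proliferation, neurogenesis and stress had members that rose, against 12.3% higher and 10.9% lower over all tested genes. In the cell cycle list 6 of 28 rose (21.4%) and 1 fell, and 4 rose without injured mouse 7 or without injured mouse 8. Among the rises were Mki67 (1.18), Top2a (1.15) and Mcm3 (1.02), the first 2 from low levels of 1.28 and 1.12 CPM in the median sham mouse. Genes of neural progenitors and neuroblasts had 8 of 16 higher and 1 lower. Several of the higher ones, such as Sox2 (0.47) and Sox9 (0.63), are also astrocyte genes, and Dcx, the marker of neuroblasts, stood at 0.17. Iron, heme and oxidative stress genes counted 16 of 33 higher and 1 lower. Hmox1, which breaks down heme, ran from 3.81 to 7.80 CPM in sham mice (median 4.92) and from 9.82 to 17.2 CPM in injured mice (median 13.1), a log2 fold change of 1.36 ± 0.17 (SE, adjusted p = 4.41e-06), without overlap, and the metallothioneins Mt1 and Mt2 rose by 0.77 and 1.10, while the Nrf2 targets Gclc (-0.0043) and Gclm (0.10) were not called. Of p53 targets and apoptosis genes 10 of 27 rose, with Casp8 at 1.07 and Bcl2a1b at 2.49, while Cdkn1a, the p53 target p21, fell (-0.72) and Mdm2 stood at 0.10.

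Lists of protein folding, respiration, translation, glycolysis and the clock differed in how many members were called, against 12.3% higher and 10.9% lower over all tested genes. Near those shares were the rises in glycolysis (11.5%) and the falls in the unfolded protein response (9.52%). The unfolded protein response had none of 21 higher and 2 lower, with Hspa5, its main chaperone, at -0.10. Heat shock genes counted 3 higher and 1 lower of 17. None of 13 mitochondrially encoded genes was called, and of 76 nuclear genes of oxidative phosphorylation 1 rose and 2 fell (median -0.04). Cytosolic ribosomal proteins had 23 of 81 higher and none lower, with a median of only 0.18. In glycolysis 3 rose, Hk2 (1.19), Hk3 (1.78) and the lactate transporter Slc16a1 (0.77), and 5 fell of 26, or 2 to 3 without injured mouse 4, 6 or 7 or sham mouse 2, 5, 6 or 8. Clock genes counted 6 of 19 lower, with Per2 at -0.34 and Arntl at -0.24, and 3 without injured mouse 2 or 4 or sham mouse 1, 2, 3 or 6.

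Injured mice differed in how far they moved, and in many lists the same mice lay at the ends. Of 22 lists in which at least as many tested members were called higher as were not, the mean level was highest in injured mouse 8 in 17 and lowest in injured mouse 1 in 14, and in 20 no injured mouse reached the sham range. In the 6 lists in which the same held for lower members, injured mouse 8 was the lowest in all 6, and in 4 the groups did not overlap. These lists were picked by calls made in the same mice, so the separation of the groups follows in part from the choice. Some genes belong to several lists, so the lists do not count as independent. On the log2(CPM + 1) scale the disease-associated microglia list ran from 3.72 to 3.91 in sham mice and from 4.93 to 6.00 in injured mice, and the reactive astrocyte list from 2.80 to 3.03 and from 4.01 to 4.96. Potassium channels ran from 5.92 to 6.11 in sham mice and from 5.52 to 5.79 in injured mice. Immediate early genes overlapped, from 4.30 to 5.46 and from 4.27 to 4.91.

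**Figure D4:**
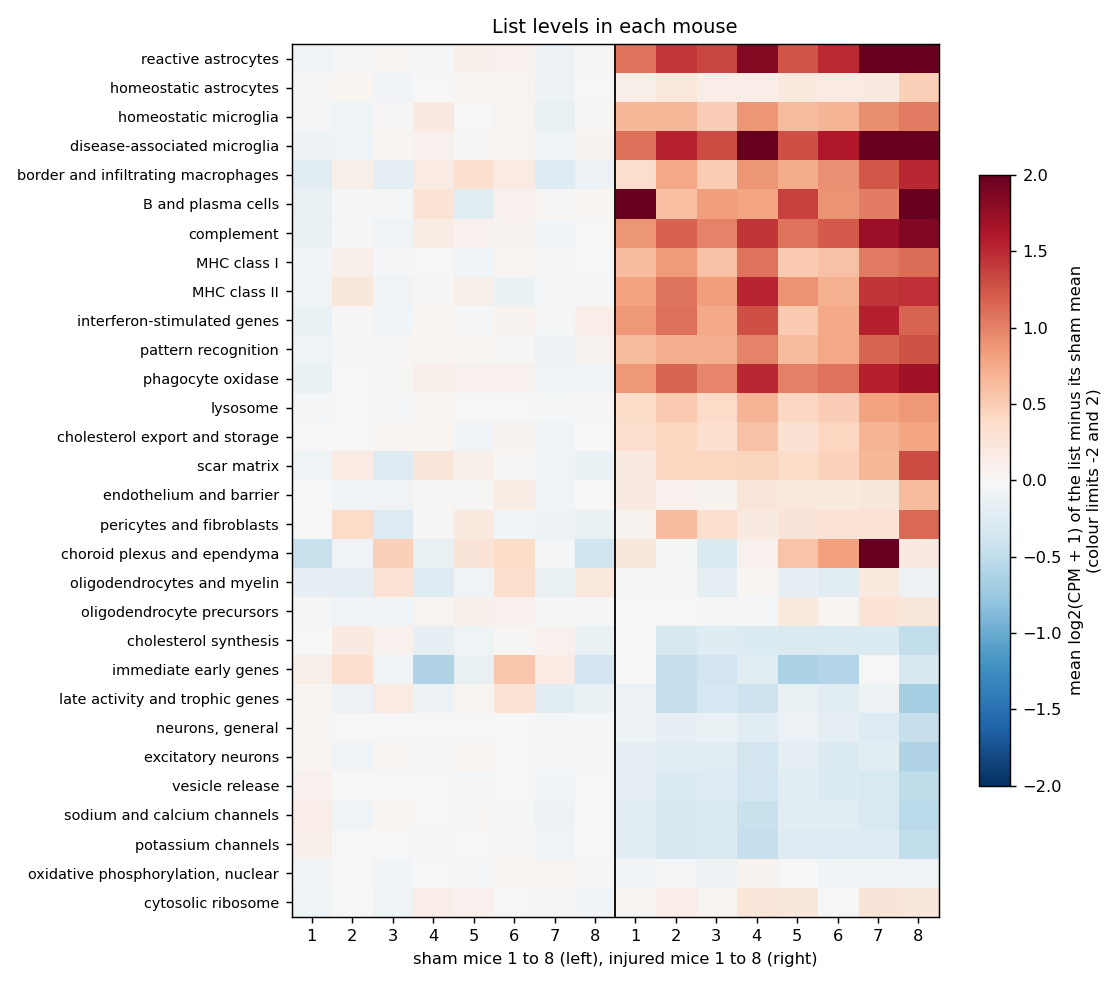
Each cell is the mean log2(CPM + 1) of 1 list in 1 mouse minus the mean of that list over the 8 sham mice, for 30 lists (rows) and 16 mice (columns), with the colour scale ending at -2 and 2. Immune and astrocyte lists are higher in all 8 injured mice, and most of these lists furthest in mice 4, 7 and 8. The B and plasma cell list is highest in injured mouse 1 and the homeostatic astrocyte list in injured mouse 8. Neuronal lists are lower, most in mouse 8, and choroid plexus genes are high in injured mouse 7.

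Males and females were compared within this genotype, 4 against 4 in each sex. No gene of 14517 tested passed edgeR's quasi-likelihood test for a difference in the response (0%), with 490 genes (3.38%) at an unadjusted p below 0.05, and none passed with DESeq2, with 384 below it. In Gfap the log2 fold change was 2.05 in males and 2.52 in females, in C3 6.71 and 7.57, in Scn4b -1.64 and -1.49, and in Abca1 1.56 and 2.02. The 5 genes with the smallest p were Pcdhgb6, Rnf19b, Creb3l2, Lrig1 and Itpkb, all with an adjusted p of 1 (smallest unadjusted p = 0.000275). With 4 mice in each cell of this test, a p that misses the threshold does not show that the sexes responded alike.

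The response was then set beside that of the genotypes that differ by 1 Abca1 copy or by APOE isoform, which share no mouse with it. In E3/Abca1+/- mice, 6 injured and 7 sham, 2007 of 15026 genes (13.4%) were higher and 1508 (10%) lower after TBI. In E4/Abca1+/+ mice, 7 injured and 7 sham, it was 1238 of 14041 (8.82%) and 684 (4.87%). Both genotypes had fewer mice than the 8 against 8 here, so these counts do not measure the size of a response. Of the genes that rose in E3/Abca1+/+ mice, 99.5% of those tested had the same sign in E3/Abca1+/- mice and 1351 were called higher there, which is 78% of the first list and 67.3% of the second. In E4/Abca1+/+ mice it was 99.1%, and the 1040 shared calls were 60% and 84% of the lists. Of the genes that fell, 99.1% and 98.2% had the same sign. The shared calls were 1026 with E3/Abca1+/- mice (66.9% and 68%) and 536 with E4/Abca1+/+ mice (34.9% and 78.4%). In the opposite direction only Pramef8 was called, lower here (-0.29) and higher in E3/Abca1+/- mice (0.20), and here the call was lost without injured mouse 4, 6 or 8 or sham mouse 4, 5 or 8.

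**Figure D5:**
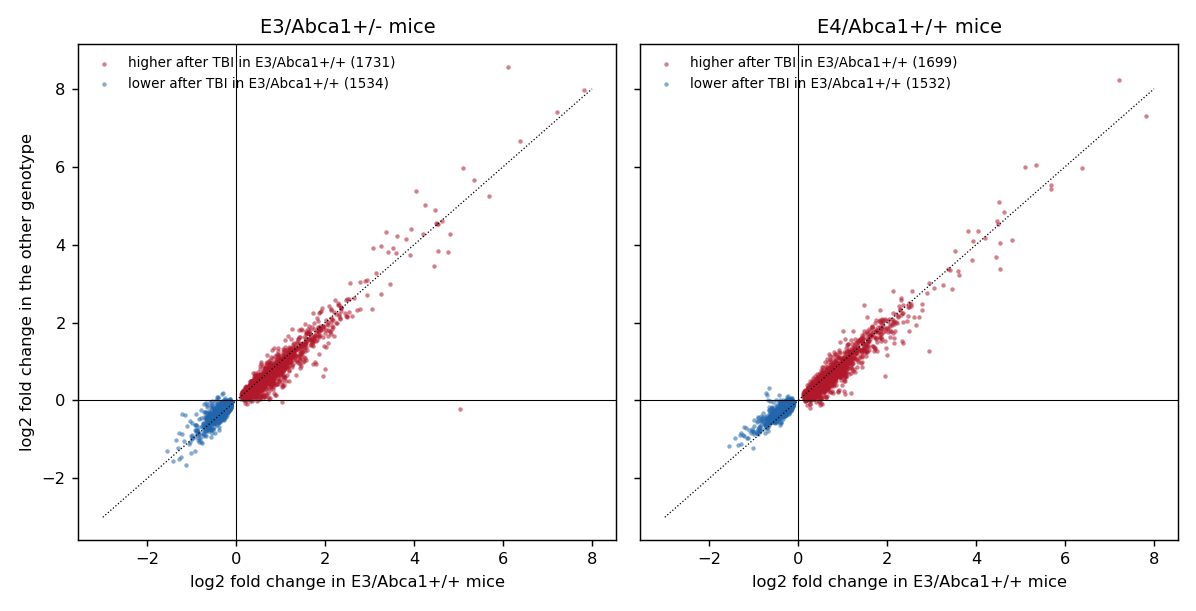
Log2 fold changes of the genes called in E3/Abca1+/+ mice (horizontal axis) against those of the same genes in E3/Abca1+/- mice (left) and E4/Abca1+/+ mice (right), with a dotted line where both are equal. Points lie along the line in both panels, with 99.5% and 99.1% of the genes that rose on the same side of 0, and Ttr is the gene far below it on the left.

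Gfap had log2 fold changes of 2.29, 2.49 and 2.35 in E3/Abca1+/+, E3/Abca1+/- and E4/Abca1+/+ mice. For Abca1 the values were 1.81, 1.55 and 1.77, for C3 7.22, 7.42 and 8.22, and for Scn4b -1.57, -1.29 and -1.17. Serpina3n had values of 2.94, 3.09 and 1.26, and the test of the difference between isoforms gave an adjusted p of 1. No gene passed edgeR's test of a different response with Abca1 copies (0% of 15098 genes, 29 mice) or with isoform (0% of 14505, 30 mice). At an unadjusted p below 0.05 there were 320 (2.12%) and 306 (2.11%), and DESeq2 also called none, with 287 and 288 at that level. As with sex, a p that misses the threshold does not show that the genotypes responded alike, and no simulation covered these tests. Among the genes with the smallest p were Pramef8, Ovol1, Nln and Kcnn2 for Abca1 copies and Slc16a4, Ptrhd1, Serpina3n, Tbp and Rn7sk for isoform.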

How the data were processed

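Reads were aligned with Subread 1.5.0 to mm10 and assigned to genes with featureCounts, and the authors deposited raw counts per gene, read here for 15171 genes after 2 unnamed rows were dropped. Whether counting used strand was not given in the sources used here. The 16 E3/Abca1+/+ libraries were compared with the edgeR 4.0.16 quasi-likelihood test in R 4.3.3 (TMM scaling, filterByExpr, which kept 14093 genes, and Benjamini-Hochberg adjusted p under 0.05). Each SE was derived from the test, as the absolute log2 fold change divided by the square root of its F statistic. It is approximate, above all for genes near the floor. Values per mouse are counts scaled by TMM-adjusted library totals (CPM), or log2(CPM + 1) averaged over a list. Interactions with sex, Abca1 copies and isoform were fitted over 16, 29 and 30 mice. On simulated counts for 8 against 8 mice, this test found 100% of genes changed by log2 1 and 64% of those changed by log2 0.5 in either direction. For the sex interaction, with 4 mice a cell, it found 80% at log2 1, 6% at 0.5 and 14% at -0.5. The simulation gave every gene the same spread and changed no gene of low count. These shares therefore do not hold for genes that vary more between mice or lie near the floor.

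Members and lists were chosen with earlier results of these data known. Named by rule were the 15 genes of smallest p and the 10 of largest fold change at 1 CPM or more in each direction, in each list the 4 called members of smallest p in each direction, its most abundant member and members against its direction, Abca1, Apoe and the 5 leading genes of each interaction. Of 235 genes given with values, 94 lie outside the rule and were picked with their values in view, and some that the rule names are not reported here. The alternatives tried were size factors and the Wald test of DESeq2 1.42.0, the exact test of edgeR, no filter or 1 CPM in 8 mice, a sex term, all 58 mice in 1 fit, a log2 fold change of at least 1, and each mouse left out. Added after seeing the data were depth class as a covariate and each class of 8 libraries alone. Promoters came from RefSeq, to which 14999 genes (98.9%) matched by identifier, and 9 motifs were searched. Each library came from a different mouse, numbered within its group in the order of the records, and the precision of a low count is limited by its library's depth.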

Additional observations from a re-analysis of the deposited data

Results flagged for a closer look

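Among the 8 mice of a group, 15 values stood apart from the rest. Their gap to the next value, as a part of the group's range, was above Dixon's 95% critical value. Gaps and ranges were taken on the log2(CPM + 1) scale for genes as well, though gene levels below are printed in CPM. The 15 values came from 86 groups of gene levels and 124 groups of list levels, and chance alone marks about 1 in 20 groups.

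Injured mouse 8 held 8 of them. Its Col3a1 level was 43.2 CPM, against 15.7 in the next mouse, and its Snap25 level of 1748 CPM lay below the next lowest of 2376. On the mean log2(CPM + 1) scale, its neuron list stood at 8.39 (next 8.58), its excitatory neuron list at 7.37 (next 7.6) and its hippocampal list at 4.23 (next 4.73), all low. Its homeostatic astrocyte list at 8.24 (next 7.97), endothelial list at 5.07 (next 4.68) and scar matrix list at 4.85 (next 4.22) were high.

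In injured mouse 7 Ttr stood at 1237 CPM (next 21.4) and the choroid plexus and ependyma list at 3.6 (next 2.14). In sham mouse 8 C4b stood at 61 CPM (next 39.6), Lcn2 at 1.8 CPM (next 0.375) and the list of ATF4 targets and tRNA synthetases at 5.82 (next 5.66). The endothelial list was high in sham mouse 6 (4.59, next 4.46), and the vesicle release list in sham mouse 1 (8.44, next 8.35).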

How the results depend on the processing

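The genes higher after TBI numbered 1732 and the genes lower after TBI 1534. Both counts stayed within 1.5 times of these under another scaling, test, filter, covariate or set of mice, with between 1722 (DESeq2 size factors) and 2261 (the fit over 58 mice) higher and between 1520 (edgeR's exact test) and 1755 (DESeq2) lower, or somewhat more in the fit over 58 mice. When single mice were left out, the genes higher after TBI ranged from 1555 to 1821 and the genes lower after TBI from 1224 to 1598. A log2 fold change of at least 1 left 402 genes higher after TBI and 18 genes lower after TBI, a far larger loss among the lower genes. The shallower 8 libraries alone gave 821 genes higher after TBI and 566 genes lower after TBI, and the deeper 8 libraries 938 and 333, with fewer mice in each. The Ttr log2 fold change turned to -0.12 in the deeper 8 libraries (adjusted p = 0.95), which leave out injured mouse 7. Of 235 genes with values, 17 changed their call in a setting that kept more than 8 libraries. In 14 of them leaving out 1 mouse was enough, and those mice stand beside their values, while Ank, Ccl27a and Rac1 changed only in the fit over 58 mice or, for Ank, also in DESeq2. Of 49 list counts of 5 or more, 10 moved by over 1.5 times in such a setting and 33 in a fit of 8 libraries. The interactions gave 0 genes past the threshold under each alternative run. No paired analysis was run, since injured and sham mice were different animals and the labels give no pairing between them.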
